A study of Rattus norvegicus with 12 samples.

Results

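Fgf23 (fibroblast growth factor 23), the stanniocalcin genes Stc1 and Stc2, the receptor genes Fgfr1 and Fgfr4, and Kl (Klotho) are hormones of phosphate and calcium balance with the receptors through which FGF23 acts. They were chosen by symbol, 6 of the 17419 genes in the deposited tables, on the ground that the hormones moved with an siRNA against Btg2. The cells were heart muscle cells (cardiomyocytes) from the ventricles of newborn wild-type Sprague-Dawley rats, cultured after fibroblasts had been separated off. RNA was taken 48 h after the cells were given small interfering RNA (siRNA) against Btg1, Btg2 or both, a gene pair whose products slow cell division and promote shortening of mRNA tails. Double knockdown cultures received 10 nM of the Btg1 siRNA and 10 nM of the Btg2 siRNA, Btg1 knockdown cultures 10 nM of the Btg1 siRNA with 10 nM of scrambled siRNA, Btg2 knockdown cultures 10 nM of the Btg2 siRNA with 10 nM of scrambled siRNA, and scramble cultures 20 nM of scrambled siRNA. Each of the 4 groups had 3 libraries. The labels do not say whether these came from separate cultures, so the p-values below weigh differences against the spread of these libraries alone, which may be technical.

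FGF23 is a hormone made mainly by bone cells. It acts on the kidney through FGF receptors with Klotho as co-receptor, lowering phosphate reabsorption and active vitamin D. In rodent cardiomyocytes FGF23 has been described to act without Klotho through FGFR4 and the phospholipase C gamma, calcineurin and NFAT branch. Stanniocalcins are secreted glycoproteins, named for the calcium-regulating corpuscles of Stannius of bony fish. In mammals they act mostly within the tissue that makes them, and both inhibit the protease PAPP-A, which frees insulin-like growth factors by cutting their binding proteins.

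The siRNAs lowered their targets, more fully for Btg1 than for Btg2. Btg1 stood at 18.3% of its scramble level (mean of counts scaled to library size, CPM) in double knockdown and 23.4% in Btg1 knockdown cultures, and Btg2 at 49.6% in double knockdown and 61.5% in Btg2 knockdown cultures. In Btg1 knockdown cultures Btg2 was at 127% of scramble. Library totals ran from 24434925 to 46206581 counts, so 1 count was worth 0.0213 to 0.0422 CPM. All 8 cardiomyocyte markers were detected in every group, with summed levels of 28173 to 29010 TPM (the deposited length-scaled level, which sums to the same total in each library) in double knockdown, 26892 to 30878 in Btg1 knockdown, 27635 to 31234 in Btg2 knockdown and 26539 to 26886 in scramble cultures. Markers of other cells were present too. The 9 fibroblast markers summed to 6555 to 7437 TPM in double knockdown, 6581 to 7495 in Btg1 knockdown, 8088 to 8294 in Btg2 knockdown and 8162 to 8363 in scramble cultures. In bulk RNA, fewer cells of a type and less RNA per cell cannot be told apart.

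Of the hormone genes, Fgf23 and Stc1 moved in opposite directions in the cultures that received the Btg2 siRNA. Fgf23 stood at about 2.25-fold its scramble level in double knockdown and 2.18-fold in Btg2 knockdown cultures (ratios of mean TPM), while Stc1 was at 52.2% and 45.3% of scramble. Stc2, which the choice of genes had put with them, overlapped between all groups. Fgf23 was also higher with the Btg1 siRNA alone, and Fgfr1, the most abundant receptor, fell in both groups that received the Btg1 siRNA. Fgfr4 was expressed at a low level and Kl was near the limit of detection.

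**Figure D1:**
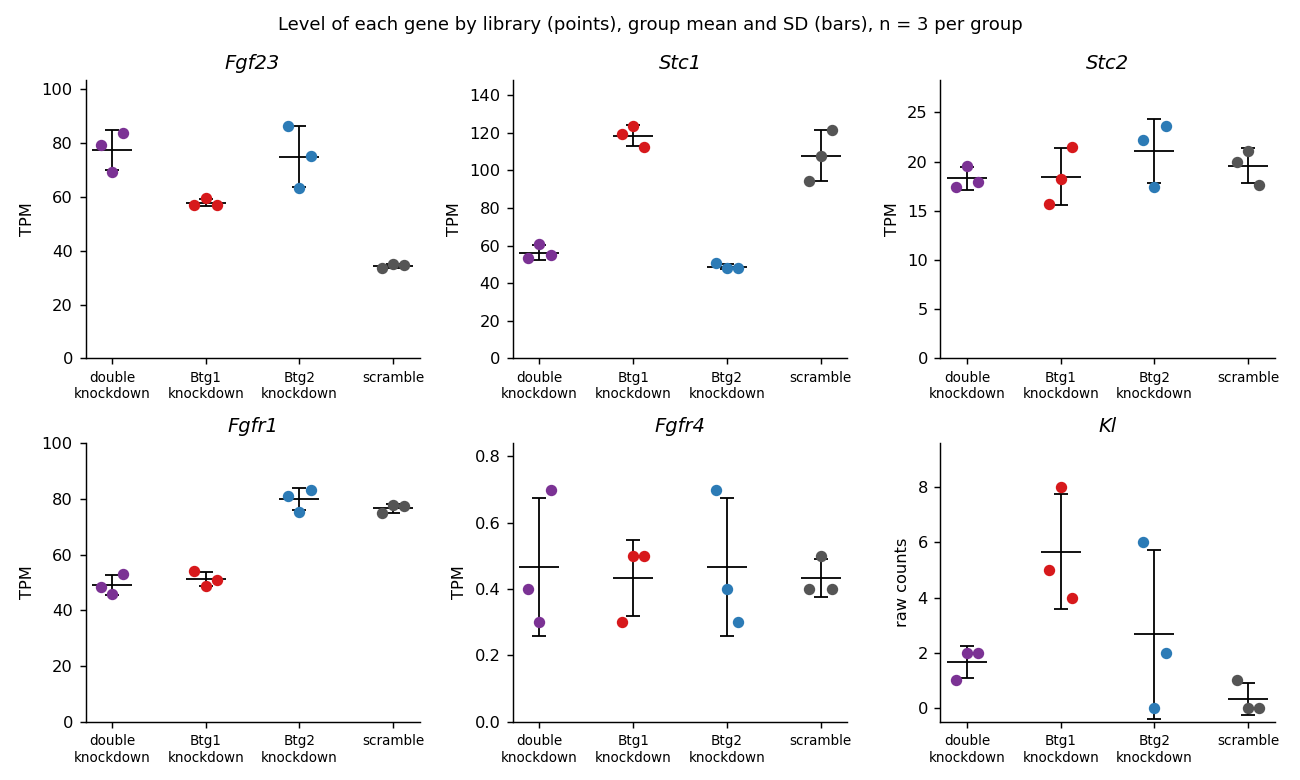
Level of each of the 6 genes by library, in the authors' TPM (raw counts for Kl), with 3 libraries (points), their mean and SD (bars) for double knockdown, Btg1 knockdown, Btg2 knockdown and scramble cultures. Fgf23 lay at 33.6 to 34.9 TPM in scramble cultures and at 56.9 TPM or above in every other library, Stc1 was lowest in both groups with the Btg2 siRNA, and Fgfr1 in both groups with the Btg1 siRNA.

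Fgf23 was measured at 79.2, 69.2 and 83.5 TPM in double knockdown replicates 1 to 3, at 56.9, 59.5 and 57.1 TPM in Btg1 knockdown, at 86.2, 63.4 and 75.1 TPM in Btg2 knockdown and at 33.6, 34.9 and 34.7 TPM in scramble cultures. Every knockdown library lay above every scramble library. From high to low, the group means were 77.3 ± 7.34 TPM in double knockdown, 74.9 ± 11.4 in Btg2 knockdown, 57.8 ± 1.45 in Btg1 knockdown and 34.4 ± 0.700 in scramble cultures (SD, n = 3 each). The double and Btg2 knockdown groups overlapped, and the Btg1 knockdown lay below both and above scramble without overlap. Fgf23 was read deeply enough for these values: 590 to 1292 counts per library in knockdown cultures and 432 to 530 in scramble cultures.

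The Btg2 contrasts chose this gene, so their sizes are given as a description with no test. On the log2 scale Fgf23 differed from scramble by 1.13 ± 0.09 in Btg2 knockdown and by 1.16 ± 0.09 in double knockdown cultures (SE, edgeR fit). By absolute size the Btg2 knockdown value ranked 97 among 12535 tested genes, of which 30.0% passed edgeR's test at an adjusted p of 0.05 in that comparison and 38.9% in double knockdown against scramble. Adding the Btg2 siRNA to the Btg1 siRNA went with a further 0.40 ± 0.08, in a comparison where 22.3% of genes passed.

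The Btg1 siRNA contrasts were not used to choose the genes, but they share the scramble or the Btg2 and double knockdown libraries with contrasts that were. For Fgf23, a choice on low scramble and high Btg2 knockdown values favours a positive change with the Btg1 siRNA alone and a negative one on top of the Btg2 siRNA, and for Stc1 the reverse, so their p-values are not fully independent of the choice. In Btg1 knockdown against scramble Fgf23 rose 1.68-fold (log2 change 0.75 ± 0.09, SE; adjusted p = 8.4e-07, edgeR quasi-likelihood test). In that comparison 2 of the 5 tested genes passed, Fgf23 higher and Fgfr1 lower, beside 36.5% of all genes tested, 18.7% higher and 17.8% lower. Fgf23 was above scramble in Btg1 knockdown cultures, with Btg2 RNA at 127% of scramble, and in Btg2 knockdown cultures, with it at 61.5%. The part of Btg2 RNA in these Fgf23 values was not tested. On top of the Btg2 siRNA, the Btg1 siRNA gave Fgf23 a log2 change of 0.02 ± 0.08 that did not pass (95% interval -0.15 to 0.20, edgeR adjusted p = 0.87). There 1 of the 5 genes passed, Fgfr1, beside 32.2% of all genes tested (17.0% lower).

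The difference between these effects of the Btg1 siRNA is the departure of the double knockdown from additive log2 effects. It contains the Btg2 knockdown values that chose the genes, so it is given for them as a description with no test. For Fgf23 it was -0.73 ± 0.12 (SE, edgeR fit). The product of the single-knockdown folds would put the double knockdown at 126 TPM, and the measured mean of 77.3 TPM was 61.4% of that. Btg2 RNA itself departed from additivity by -0.65 ± 0.06 (SE, edgeR adjusted p = 1.4e-07), in a comparison where 15.1% of all genes passed. In double knockdown cultures it stood at 80.6% of its level in Btg2 knockdown cultures. Btg1 RNA departed too, by -0.44 ± 0.06 (SE, edgeR adjusted p = 2.9e-05). In double knockdown cultures it stood at 78.1% of its level in Btg1 knockdown cultures. The part of either in the values of Fgf23 and the other chosen genes was not tested.

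Summed levels of cell type markers differed between the same groups. The summed cardiomyocyte markers were at 107%, 109% and 108% of scramble in double, Btg1 and Btg2 knockdown cultures, although of the 8 markers 1 rose and 1 fell, 2 rose and 3 fell, and 3 rose and 0 fell (edgeR adjusted p below 0.05), beside 19.4% and 19.5%, 18.7% and 17.8%, and 16.4% and 13.6% of all genes higher and lower. The 6 smooth muscle and pericyte markers were at 108%, 125% and 119% of scramble in sum. Of these 6, 3 rose and 1 fell, 2 rose and 1 fell, and 1 rose and 0 fell, beside the same shares of all genes. The 8 macrophage markers, none at 0, summed to 53.7 to 56.3, 48.5 to 57.8 and 45.8 to 47.0 TPM in the same groups and to 61.5 to 76.4 TPM in scramble cultures. Among these 8, 0 rose and 2 fell, 0 rose and 2 fell, and 0 rose and 6 fell, beside the same shares of all genes. Their part in the Fgf23 result was not tested. The 6 osteoblast and osteocyte markers, cells known as the main source of FGF23, summed to 2.9 to 4.8 TPM in any library, and among them Ibsp had no counts in Btg2 knockdown cultures. Of these 6, 2 passed the filter and 0 of the 2 passed the test in any comparison (edgeR).

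**Figure D2:**
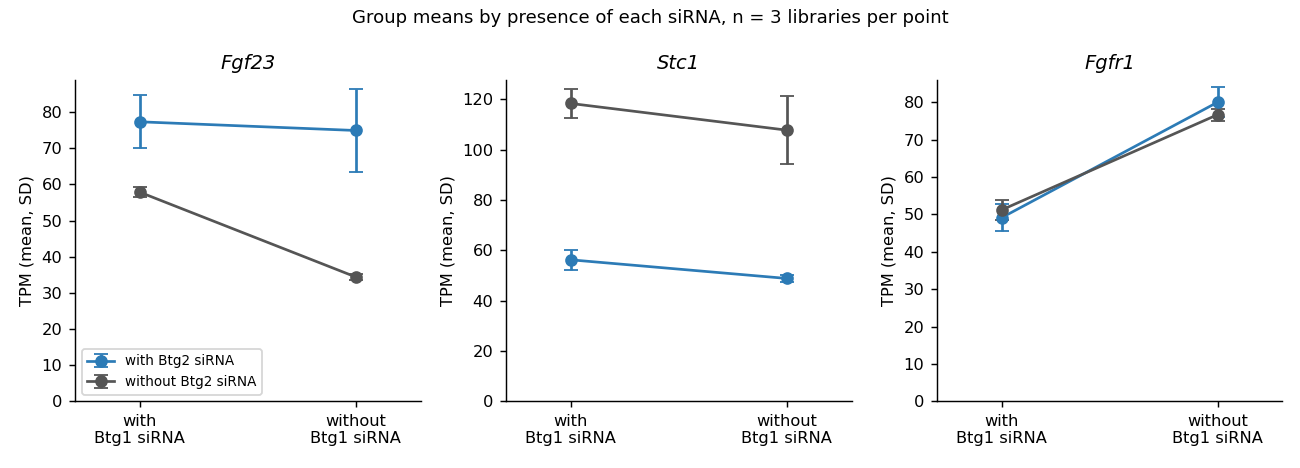
Mean TPM (points) and SD (bars, n = 3) of Fgf23, Stc1 and Fgfr1 with and without the Btg1 siRNA, drawn separately for cultures with and without the Btg2 siRNA. The Fgf23 lines are not parallel: 57.8 against 34.4 TPM without the Btg2 siRNA, and 77.3 against 74.9 TPM with it.

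Stc1 was the most abundant of the 3 hormone genes in scramble cultures by length-scaled level, with 107.8 ± 13.4 TPM beside 34.4 for Fgf23 and 19.6 for Stc2. It was measured at 53.3, 60.7 and 54.8 TPM in double knockdown, 119.3, 123.5 and 112.4 TPM in Btg1 knockdown, 50.5, 47.9 and 48.2 TPM in Btg2 knockdown and 94.5, 107.6 and 121.3 TPM in scramble cultures. All 6 libraries with the Btg2 siRNA lay below all 6 without it. Btg1 knockdown, the highest group, overlapped scramble, and double knockdown lay just above Btg2 knockdown without overlap. The scramble libraries were the most spread.

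For Stc1 too the Btg2 contrasts are a description with no test. The log2 change was -1.14 ± 0.07 in Btg2 knockdown against scramble (SE, edgeR fit), ranked 96 of 12535 genes by absolute size, and -0.95 ± 0.07 in double knockdown against scramble. With the Btg2 siRNA added to the Btg1 siRNA it was -1.09 ± 0.07, much the same size as without it. The departure from additivity was 0.05 ± 0.10 (SE, no test).

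The Btg1 siRNA gave Stc1 small positive changes that did not pass edgeR: 0.14 ± 0.07 alone (95% interval -0.0027 to 0.28, adjusted p = 0.12) and 0.19 ± 0.07 on top of the Btg2 siRNA (95% interval 0.04 to 0.34, adjusted p = 0.056). The first passed without scramble replicate 3 (0.23, edgeR adjusted p = 0.0061). The second passed with DESeq2 (adjusted p = 0.028) and without scramble replicate 1 or 3 or double knockdown replicate 1 (edgeR adjusted p = 0.014, 0.016 and 0.037). The 6 endothelial markers, none at 0, summed to 42.2 to 46.1 TPM in double knockdown and 50.0 to 50.8 in Btg2 knockdown. They summed to 52.9 to 58.4 TPM in Btg1 knockdown and 58.7 to 62.9 in scramble cultures. Both groups with the Btg2 siRNA were thus lowest, as for Stc1. Within the groups with it, and within those without it, the group means ran in the reverse order to those of Stc1. Of the 6, 5 fell and 1 rose in double knockdown and 4 fell in Btg2 knockdown cultures against scramble (edgeR adjusted p below 0.05), beside 19.5% and 13.6% of all genes lower. Their part in the Stc1 values was not tested.

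Stc2 did not follow the description under which it was chosen. It stood at 17.4, 19.6 and 17.9 TPM in double knockdown, 15.7, 18.2 and 21.5 TPM in Btg1 knockdown, 22.2, 17.4 and 23.6 TPM in Btg2 knockdown and 20.0, 21.1 and 17.6 TPM in scramble cultures. All groups overlapped. Its log2 difference in Btg2 knockdown against scramble was 0.12 ± 0.12 (SE, edgeR fit, no test), ranked 6961 by absolute size. The changes with the Btg1 siRNA, -0.09 ± 0.12 alone (95% interval -0.34 to 0.16, edgeR adjusted p = 0.62) and -0.23 ± 0.12 on top of the Btg2 siRNA (-0.48 to 0.02, adjusted p = 0.16), did not pass. Its departure from additivity was -0.14 ± 0.17 (SE, no test).

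Fgfr1, which encodes a tyrosine kinase receptor for many FGF ligands, was lower wherever the Btg1 siRNA was present. It stood at 48.5, 46 and 53 TPM in double knockdown, 54.0, 48.8 and 50.9 TPM in Btg1 knockdown, 81.2, 75.5 and 83.4 TPM in Btg2 knockdown and 74.9, 77.8 and 77.4 TPM in scramble cultures. The 6 libraries with the Btg1 siRNA lay below the 6 without it, and within each set the groups overlapped. Fgfr1 fell by 0.58 ± 0.05 on the log2 scale with the Btg1 siRNA alone (SE, edgeR adjusted p = 7.0e-09) and by 0.72 ± 0.05 on top of the Btg2 siRNA (adjusted p = 2.7e-10). The departure from additivity was -0.14 ± 0.07 (SE, no test). In the Btg2 contrasts its log2 differences were 0.07 ± 0.05 against scramble and -0.07 ± 0.05 on top of the Btg1 siRNA (SE, no test).

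Fibroblast markers also fell with the Btg1 siRNA. Of 9 tested, 8 fell and 0 rose in Btg1 knockdown against scramble, beside 17.8% of all genes lower, and 6 fell and 1 rose with the Btg1 siRNA on top of the Btg2 siRNA, beside 17.0% lower (edgeR adjusted p below 0.05). In Btg2 knockdown against scramble, where Fgfr1 stood at 104% of its scramble TPM, 5 of the 9 fell and 1 rose, beside 13.6% lower, with a median log2 change of -0.14 and a summed level at 99.4% of scramble. None was at 0 in any group. Their summed level was 83.6% of scramble in double knockdown and 86.0% in Btg1 knockdown cultures, where Fgfr1 was at 64.1% and 66.8% of its scramble TPM. Their part in the Fgfr1 result was not tested.

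**Figure D3:**
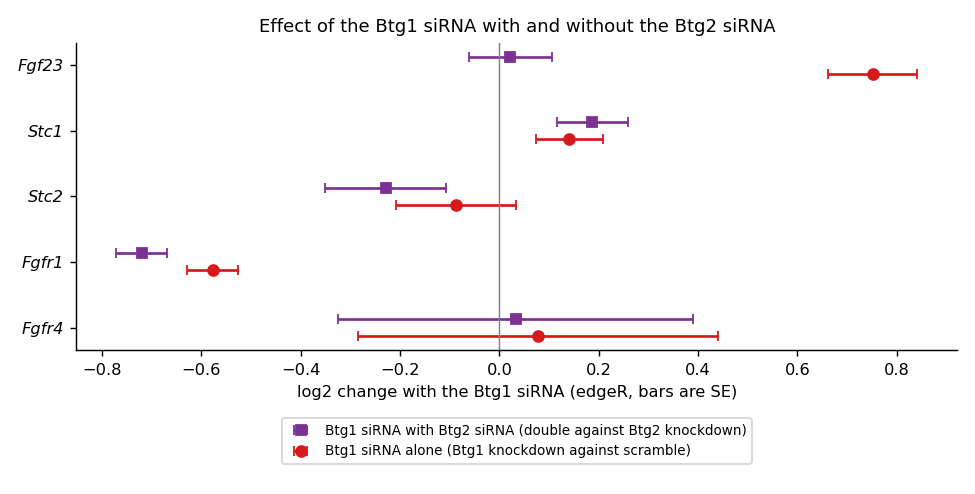
Log2 change with the Btg1 siRNA on top of the Btg2 siRNA (squares, double against Btg2 knockdown) and alone (circles, Btg1 knockdown against scramble) for the 5 tested genes, from edgeR with SE bars. Fgf23 changed by 0.02 and 0.75, and Fgfr1 by -0.72 and -0.58.

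Fgfr4, the receptor through which FGF23 has been described to act on rodent heart muscle cells, was at 0.3 to 0.7 TPM in double knockdown, 0.3 to 0.5 in Btg1 knockdown, 0.3 to 0.7 in Btg2 knockdown and 0.4 to 0.5 in scramble cultures. These rest on 20 to 45, 23 to 32, 16 to 41 and 20 to 33 counts per library, and all groups overlapped. The log2 changes with the Btg1 siRNA were 0.08 ± 0.36 alone (95% interval -0.67 to 0.83, edgeR adjusted p = 0.90) and 0.03 ± 0.36 on top of the Btg2 siRNA (-0.71 to 0.77, adjusted p = 0.96). A change of the size of Fgfr1's with the Btg1 siRNA alone lies inside these intervals and was not detectable at this depth. Kl, the co-receptor, did not pass the filter on low counts. Its libraries held 1, 2 and 2 counts in double knockdown, 5, 8 and 4 in Btg1 knockdown, 6, 0 and 2 in Btg2 knockdown and 1, 0 and 0 in scramble cultures. That is 31 counts in all 12 libraries, too few for a fold or a test. If each count is an independent event, a count of 0 allows up to 3 counts, or 0.0758 CPM in scramble replicate 2. Where both mates of a read pair are counted, the bound would be higher.

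Of 22 FGF genes, intracellular members such as Fgf13 included, 12 passed the filter. By length-scaled level (TPM) Fgf23 ranked 4 of the 22 in scramble cultures. Fgf1, a heparin-binding ligand without a signal peptide, ranked 1, with 77.0 ± 5.71 TPM in double knockdown and 93.3 ± 1.42 TPM in scramble cultures (SD, n = 3 each). In double knockdown cultures the Fgf23 mean of 77.3 TPM matched that of Fgf1 within the SD. By CPM, not scaled to length, Fgf23 was lower there, at 29.4 ± 2.91 beside 45.8 ± 2.95 for Fgf1 (SD, n = 3 each). The match thus depends on the length scaling. The other FGF genes were counted from a list of 29 FGFs, binding proteins, receptors and co-receptors, of which 16 were tested. In Btg1 knockdown against scramble 3 rose and 4 fell, beside 18.7% higher and 17.8% lower of all genes, so the share that rose is near the background (median log2 change 0.09, against 0.00 for all genes). The 3 were Fgfr2 by 0.83 ± 0.07, Fgfr3 by 0.89 ± 0.10 and the decoy-like receptor Fgfrl1 by 0.48 ± 0.08 (SE, edgeR adjusted p = 9.3e-09, 3.0e-07 and 8.6e-05), while Fgfr1 fell. Fgf13, an intracellular partner of sodium channels, fell by 0.48 ± 0.06.

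By length-scaled level (TPM) Fgfr1 was well above the receptors that rose. Fgfr3 was at 8.30 ± 0.954 TPM in double knockdown, 7.67 ± 0.416 in Btg1 knockdown, 4.03 ± 0.321 in Btg2 knockdown and 4.17 ± 0.208 in scramble cultures (SD, n = 3 each). Fgfr2 was at 1.2 TPM in each double knockdown library, 1.7 to 1.9 in Btg1 knockdown, 0.9 to 1.0 in Btg2 knockdown and 1.0 in each scramble library. By CPM, not scaled to length, Fgfr2 averaged 13.7 in scramble and 24.3 in Btg1 knockdown cultures, beside 6.66 and 12.4 for Fgfr3. The order of Fgfr2 and Fgfr3 thus depends on the length scaling. In double knockdown against scramble 4 of the 16 listed genes rose, among them Fgfr3 (0.99 ± 0.10) and Fgfrl1 (0.61 ± 0.08), beside 19.4% of all genes, and 2 fell, Fgf13 (-0.36 ± 0.06) and Fgf1 (-0.29 ± 0.05), beside 19.5%, with a median of -0.10 against -0.01 for all genes. In Btg2 knockdown against scramble 2 rose, Fgfrl1 (0.34 ± 0.09) and the binding protein Fgfbp3 (0.39 ± 0.14), beside 16.4% of all genes, and 0 fell, beside 13.6%, with a median of -0.02 against 0.00. These comparisons share the scramble libraries. The 4 falls with Btg1 knockdown were 2 without scramble replicate 2, and the 2 rises with Btg2 knockdown were 1 without scramble replicate 1 or Btg2 knockdown replicate 3 and 0 without Btg2 knockdown replicate 1.

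**Figure D4:**
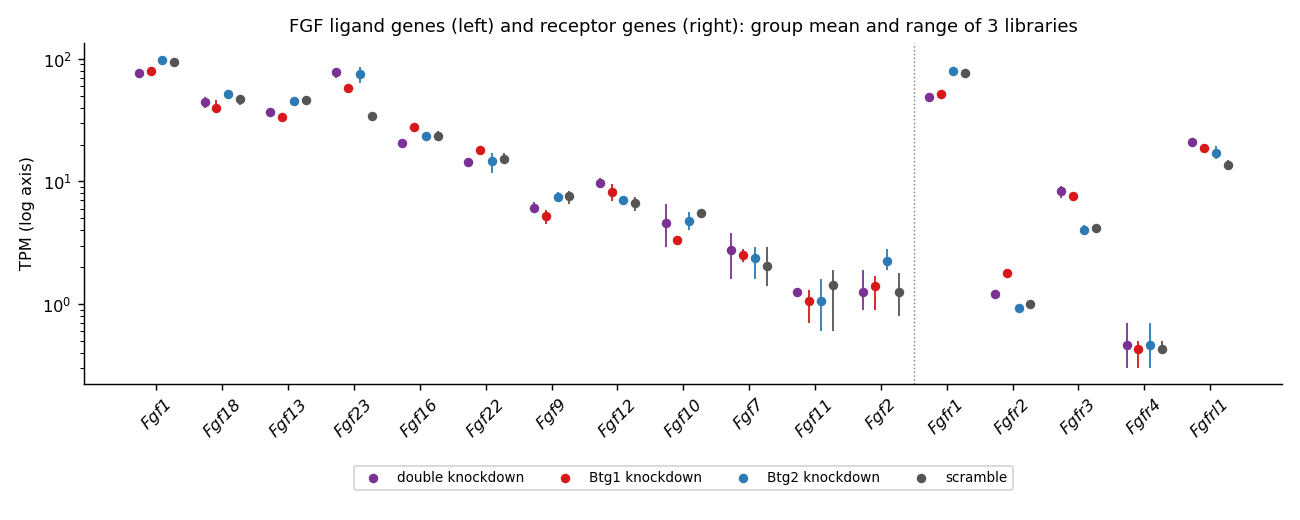
TPM (log axis) of the 12 FGF genes that passed the filter, intracellular members such as Fgf13 included, ordered by scramble level, and of 5 receptor genes. Points are the mean and lines the range of 3 libraries in double knockdown, Btg1 knockdown, Btg2 knockdown and scramble cultures. Fgf23 ranked 4 among the FGF genes in scramble cultures, and Fgfr1 was the highest receptor in every group.

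Downstream of the receptors, 26 genes were tested: adaptors, the phospholipase C gamma, calcineurin and NFAT branch, and the targets and feedback inhibitors of the ERK pathway. In Btg2 knockdown against scramble 11 rose and 2 fell, beside 16.4% higher and 13.6% lower of all genes (median log2 change 0.07, against 0.00 for all genes). Spry4, a feedback inhibitor of receptor tyrosine kinase signalling, rose by 0.59 ± 0.05, the NFAT gene Nfatc3 by 0.40 ± 0.04, Rcan1, a calcineurin inhibitor and itself an NFAT target, by 0.36 ± 0.05, and the ERK phosphatase gene Dusp6 by 0.26 ± 0.05 (SE, edgeR adjusted p = 3.2e-09 to 2.2e-04). The 2 falls were 1 without Btg2 knockdown replicate 3. In Btg1 knockdown against scramble 8 rose and 4 fell, beside 18.7% higher and 17.8% lower of all genes (median 0.05), led by the phosphatase gene Ptpn11 (0.31 ± 0.03), the early gene Egr1 (0.50 ± 0.06) and Dusp6 (0.38 ± 0.05), with Nfatc1 lower by 0.64 ± 0.08. In double knockdown against scramble 6 rose and 6 fell, near the 19.4% higher and 19.5% lower of all genes (median 0.01), led by Spry4 (0.54 ± 0.05) and Nfatc3 (0.41 ± 0.04) upward and Etv5 (-0.47 ± 0.06) and Nfatc1 (-0.41 ± 0.08) downward.

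**Figure D5:**
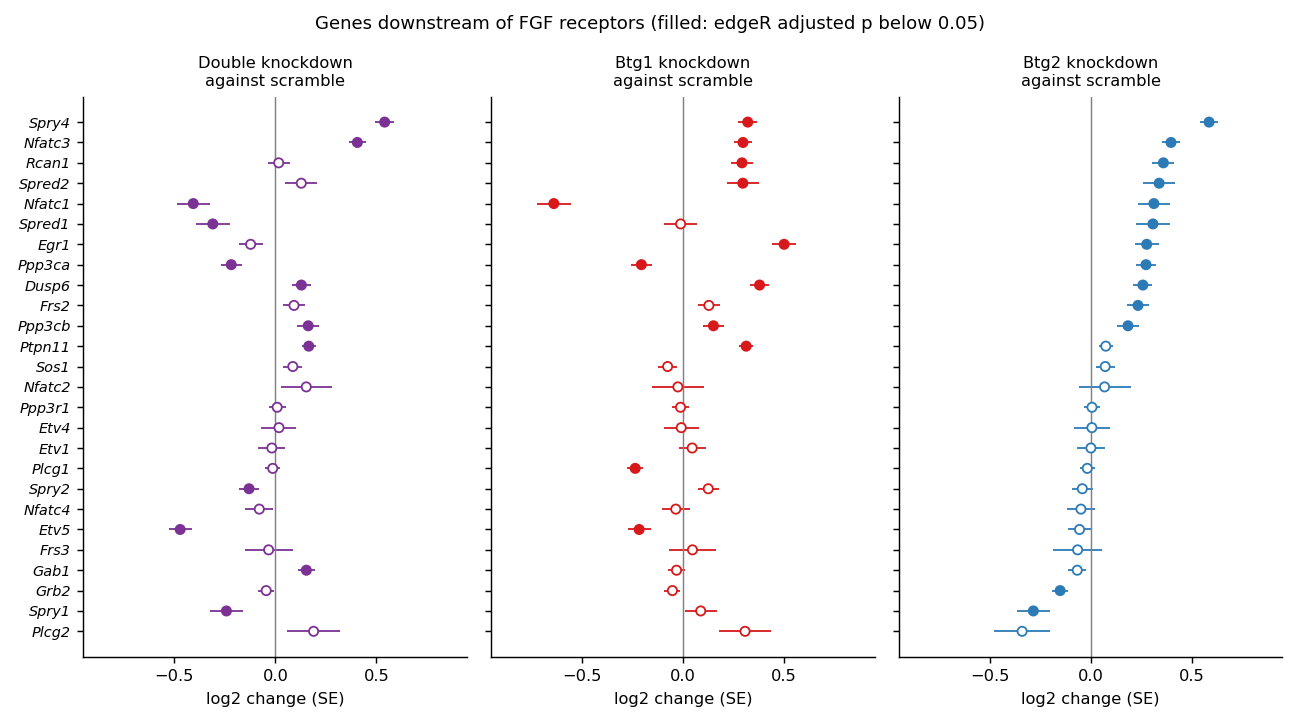
Log2 change (points, SE bars) of 26 genes downstream of FGF receptors in double, Btg1 and Btg2 knockdown against scramble, filled where edgeR's adjusted p was below 0.05, ordered by the Btg2 knockdown value. With the Btg2 siRNA alone 11 filled points lie above 0 and 2 below, and in double knockdown cultures 6 lie on either side.

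Of 28 other genes of phosphate, calcium and vitamin D handling 15 were tested. Those below the filter included the phosphate transporter genes Slc34a1, Slc34a2 and Slc34a3 and the vitamin D hydroxylase gene Cyp24a1. Xpr1, the phosphate exporter, rose in each knockdown, by 0.44 ± 0.05 in double, 0.48 ± 0.05 in Btg1 and 0.70 ± 0.05 in Btg2 knockdown cultures against scramble (SE, edgeR adjusted p = 1.1e-07, 2.9e-08 and 4.5e-10). It stood at 87.7 ± 5.59, 89.4 ± 6.82 and 103 ± 3.18 TPM in those groups and 64.1 ± 0.985 TPM in scramble cultures (SD, n = 3 each). Ankh, a pyrophosphate exporter, fell by 0.40 ± 0.04 in double and by 0.22 ± 0.04 in Btg1 knockdown cultures. Enpp1, which makes pyrophosphate, rose by 0.46 ± 0.06 in Btg2 knockdown cultures, and Furin, a protease known to cut FGF23, rose by 0.20 ± 0.04 in double and 0.15 ± 0.04 in Btg2 knockdown cultures. In all, 4 rose and 2 fell in double knockdown, 3 rose and 1 fell in Btg1 knockdown and 4 rose and 1 fell in Btg2 knockdown cultures, with medians of -0.06, -0.10 and 0.02. Of all genes 19.4% rose and 19.5% fell in double, 18.7% and 17.8% in Btg1 and 16.4% and 13.6% in Btg2 knockdown cultures, and the 3 of 15 that rose in Btg1 knockdown cultures lie near that share. The 4 rises of the double knockdown were 2 without scramble replicate 1 or double knockdown replicate 3. The 3 of the Btg1 knockdown were 1 without scramble replicate 1 or Btg1 knockdown replicate 3, and its 1 fall became 2 without scramble replicate 2, Btg1 knockdown replicate 3 or double knockdown replicate 2 or 3. The 1 fall with the Btg2 siRNA, Cyp27b1 (-0.86 ± 0.31, edgeR adjusted p = 0.038), was 0 without any one of the scramble or Btg2 knockdown libraries.

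Of 12 genes of the insulin-like growth factor system 8 were tested. The gene of PAPP-A, which is on that list, had no row under its symbol in the deposited tables. In Btg2 knockdown against scramble Igf2r, the clearance receptor for IGF2, rose by 0.46 ± 0.04, and the binding protein genes Igfbp6 (-0.51 ± 0.11) and Igfbp3 (-0.40 ± 0.09) fell (SE, edgeR adjusted p = 3.3e-09, 0.0012 and 0.0062), a count of 1 rise and 2 falls, beside 16.4% higher and 13.6% lower of all genes. In Btg1 knockdown 0 rose and 3 fell, beside 18.7% and 17.8%: Igfbp6 (-0.50 ± 0.11), Igfbp5 (-0.38 ± 0.09) and Igfbp4 (-0.20 ± 0.05). Without Btg1 knockdown replicate 2, and with DESeq2, 1 rose. In double knockdown 2 rose, with Igf2r at 0.28 ± 0.04, and 4 fell, with Igfbp6 at -0.78 ± 0.11 and Igf1r at -0.28 ± 0.06, beside 19.4% higher and 19.5% lower of all genes. The 2 rises were 1 without scramble replicate 1 or 3, any double knockdown library, Btg1 knockdown replicate 3 or Btg2 knockdown replicate 2.

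The genes whose log2 CPM followed each hormone gene most closely over the 12 libraries were sought among 9603 genes with at least 5 CPM on average. The libraries fall into 4 groups, so these correlations describe a shared pattern of group levels and carry no p. For Fgf23 they were Slc12a4, a potassium chloride cotransporter gene (Pearson r = 0.98), Spry4 (0.98) and Wdr6 (0.97). Their spans differed: Slc12a4 stood at 115.5 ± 3.08 TPM in double knockdown, 109 ± 1.15 in Btg1 knockdown, 113 ± 4.42 in Btg2 knockdown and 102 ± 1.15 in scramble cultures. Spry4 stood at 38.3 ± 1.00, 32.5 ± 1.25 and 39.0 ± 1.74 TPM in the same knockdowns and at 26.1 ± 0.300 TPM in scramble cultures (SD, n = 3 each), the same order of groups as Fgf23 apart from the overlapping double and Btg2 knockdowns. For Stc1 they were Sar1b, a GTPase gene of transport from the endoplasmic reticulum (0.98), the glypican gene Gpc4 (0.98) and the acetyltransferase gene Kat7 (0.97). Sar1b was at 141 ± 7.02 TPM in double knockdown, 195 ± 8.45 in Btg1 knockdown, 132 ± 2.87 in Btg2 knockdown and 185 ± 4.40 in scramble cultures. For Stc2 the closest were Cadm1 (0.78), Ppp1r18 (0.77) and Ovca2 (0.75).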

How the data were processed

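RNA was amplified with an Ovation kit, made into libraries with Nextera XT and sequenced in pairs, per the labels' protocols. Per the submitters' processing notes the tools were STAR, featureCounts, cutadapt, Trim Galore and FastQC, with the rat build rn5. Versions, annotation and strand setting: not given in the sources used here. Raw counts per gene symbol and TPM values rounded to 0.1 were deposited. Low counts were more often even than odd (13201 against 10440 for 1 to 10), as when both mates are counted, and amplified reads are not independent molecules.

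Counts were tested with edgeR 4.0.16 (limma 3.58.1, R 4.3.3): quasi-likelihood F test with robust dispersions, TMM scaling, filterByExpr (12535 of 17419 genes kept), all 12 libraries in one fit, and Benjamini-Hochberg adjustment over all tested genes with calls at 0.05. Each SE is the absolute log2 change divided by the root of F, and intervals are 95%. Replicates differed by more than sampling noise (chi-square per degree of freedom 4.07 to 25.7). Floors for a count of 0 cover counting error only and take counts as independent.

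Named genes were the 6 chosen, Btg1 and Btg2, up to 4 genes of smallest p per list and comparison, listed genes of high level, and the 3 genes of likest pattern per hormone. Slc34a1, Slc34a2, Slc34a3, Cyp24a1, Cyp27b1, Ibsp and the Fgfr2 and Fgfr3 levels were named after their values were seen. The genes and lists were chosen with earlier results of these data known. Departures from additivity of the 6 genes, planned as a test, are given with none, since they contain the contrasts that chose them. Alternatives were DESeq2 1.42.0, RLE or no scaling factor, no or a stricter filter, a fit of only the groups compared, a replicate block, limma on log2 TPM with a pseudocount of 1 or 0.1, and each library left out.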

Additional observations from a re-analysis of the deposited data

How the results depend on the processing

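Fgf23 and Fgfr1 kept direction and call in every alternative fit of the Btg1 siRNA contrasts in which they had passed. With each library left out in turn, the log2 change with the Btg1 siRNA alone ran from 0.73 to 0.78 for Fgf23, 0.057 to 0.23 for Stc1, -0.22 to 0.036 for Stc2, -0.60 to -0.55 for Fgfr1 and -0.060 to 0.32 for Fgfr4. On top of the Btg2 siRNA it ran from -0.064 to 0.14 for Fgf23, 0.13 to 0.23 for Stc1, -0.32 to -0.16 for Stc2, -0.79 to -0.67 for Fgfr1 and -0.37 to 0.44 for Fgfr4. The departure from additivity, given with no test, ran from -0.82 to -0.61 for Fgf23, -0.042 to 0.13 for Stc1, -0.26 to -0.01 for Stc2, -0.21 to -0.10 for Fgfr1 and -0.45 to 0.36 for Fgfr4. For Stc1 on top of the Btg2 siRNA the change passed at 0.19 with DESeq2 (adjusted p = 0.028), at 0.22 with library size alone (edgeR adjusted p = 0.026) and at 0.19 with only the groups compared (edgeR adjusted p = 0.023); the cause was not tested. Genes called ranged from 3716 to 4892 in Btg1 knockdown against scramble with a library left out (4571 with all), and no alternative moved a count of genes called by over 1.5 times in any of the 6 comparisons. No scaling moved the median log2 change of all genes by over 0.037. Among the small lists, the 2 FGF-family rises in Btg2 knockdown were 1 with library size alone or limma at a pseudocount of 0.1, the 1 mineral fall there was 0 with limma or the stricter filter, the 1 mineral fall in Btg1 knockdown was 2 with no filter or only the groups compared, and the 2 rises of the insulin-like growth factor list in double knockdown were 1 with library size alone, limma or the replicate block. Fgfr4 has no value with the TPM fits or the stricter filter.

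Same-numbered libraries did not deviate together (correlations of -0.09 to 0.06, and 3 of 12 libraries correlated best with their own number), so the numbers do not pair them. With the replicate block the Fgf23 change was 0.75 with the Btg1 siRNA alone, its departure -0.72, and 4455 genes were called in Btg1 knockdown against scramble; no call on the 5 tested genes changed. By Spearman's rho, 1 of 3 likest genes stayed for Fgf23 (Slc12a4), 0 for Stc1 and 2 for Stc2. Depth limits Fgfr4 and Kl.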
